A study of Mus musculus with 7 samples.

Results

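The regions described here are the places in the genome where chromatin of adipose tissue macrophages was most open after weight loss, more open than in mice that never became obese and more open than in mice still obese. They were taken from the 5898 regions of the deposited tables, all 7 tables together, on chromosomes 1 to 19. For each region the mean of log2(normalized count + 1) was formed in each diet group, and a region was kept where the HFD-RD mean lay at least 1 above the RD-RD mean and at least 0.7 above the HFD mean, both on the log2 scale. The regions were thus selected on these 2 measured differences. This kept 433 regions, 7.34% of the deposited regions, assigned by the authors to 397 genes. Both differences chose the regions, so for this set they are given as a description, without a test. A further 2686 regions met the first threshold without the second and are called the other opened regions, and the remaining 2779 are called the rest.

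Accessibility was measured by ATAC-seq on nuclei of macrophages sorted by FACS from adipose tissue of adult male C57Bl/6J mice. HFD-RD mice (n = 2 libraries) ate a high-fat diet (HFD, 60% lipid) for 11 weeks and were then moved to a regular diet (RD, 10% lipid) for 9 weeks, over which they lost weight. HFD mice (n = 3) ate the high-fat diet for 11 weeks and were studied without a later diet, and RD-RD mice (n = 2) ate the regular diet for all 20 weeks. HFD mice were thus 9 weeks earlier in the schedule than the other groups, and diet and this time difference cannot be told apart. The labels do not say whether a library is 1 animal or a pool, so p-values measure the spread between libraries. The source names of all 7 libraries name a different diet from their titles and diet tags, and titles and tags were followed.

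In ATAC-seq the Tn5 transposase cuts DNA that is not wrapped tightly in nucleosomes, so promoters and enhancers in use give many reads. Adipose tissue macrophages clear dying adipocytes and take up their lipid, and in obesity they accumulate and change their gene programme. A more accessible enhancer can precede, follow or accompany a change in transcription, and no RNA was measured here. In a bulk library, a region open in more of the cells and a region more open in each cell cannot be told apart.

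Of the 422 regions that could be compared with RefSeq promoter windows, 2 contained a RefSeq promoter window (250 bases before to 50 after an annotated gene start, GRCm38.p6), and both are printed because they are the places where the set touches an annotated start. The first is an internal start of Hsd11b1, the enzyme that regenerates active glucocorticoid from its inert form, at chr1:193242311-193242610 on the minus strand, inside the region chr1:193242026-193243303. The second is a start of Junos, a long noncoding RNA gene, at chr4:95094563-95094862 on the plus strand, inside a region assigned to Jun, chr4:95094450-95095201. Capitals mark matches to 18 letter patterns searched on both strands.
Hsd11b1: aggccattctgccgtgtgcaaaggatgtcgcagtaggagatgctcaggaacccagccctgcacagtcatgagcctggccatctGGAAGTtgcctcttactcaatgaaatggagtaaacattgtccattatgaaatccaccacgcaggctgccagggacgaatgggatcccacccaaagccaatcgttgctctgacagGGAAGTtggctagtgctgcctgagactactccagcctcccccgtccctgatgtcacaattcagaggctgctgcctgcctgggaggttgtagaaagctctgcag
Junos: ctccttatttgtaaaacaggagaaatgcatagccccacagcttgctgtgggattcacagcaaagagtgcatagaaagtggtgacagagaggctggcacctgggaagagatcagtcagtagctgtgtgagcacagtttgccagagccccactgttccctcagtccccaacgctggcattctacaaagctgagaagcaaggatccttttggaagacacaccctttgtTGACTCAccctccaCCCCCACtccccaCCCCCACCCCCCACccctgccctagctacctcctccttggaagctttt
In the Hsd11b1 window the PU.1 and ETS letters GGAAGT matched at bases 84 and 198 counted from the 5′ end of the printed strand, a pattern held by 23.8% of all 32851 windows. In the Junos window the AP-1 letters TGANTCA matched once, at base 226 (7.81% of all windows), and the EGR letters GTGGGNG matched 3 times on the opposite strand, starting at bases 240, 253 and 260 (31.6%). GC content was 54.7% in the Hsd11b1 window and 54.0% in the Junos window, and the median over all windows was 52.7%. These matches describe letters in a window and show no bound factor. Sequence of the other 431 regions was not analysed here.

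Across all deposited regions the size factors, by which the authors' values divide the reads, were 0.548 and 1.08 for HFD-RD, 2.21, 1.22 and 1.16 for HFD, and 0.803 and 0.694 for RD-RD. The median region of the set held 85 and 130 reads in the HFD-RD libraries, 159, 90 and 82 reads in HFD and 40 and 39 reads in RD-RD, so the RD-RD values carry the largest counting error. After the authors' scaling, normalized counts over all deposited regions summed, in units of 1e+06, to 1.62 in HFD-RD replicate 1, 1.37 in HFD-RD replicate 2, 1.25 to 1.35 in HFD and 1.29 to 1.32 in RD-RD. With every library set to the same total, 140 of the 433 regions still met the thresholds, and the part that this scaling plays in the set was not tested further. The deposited tables hold regions that the authors selected as different between groups from these same libraries, so counts over all of them are no neutral background. The limma p-values and calls reuse the libraries of that selection, so they describe the regions and are no independent support.

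HFD-RD lay above RD-RD by a median of 1.35 (range 1.00 to 3.24) and above HFD by a median of 0.86 (range 0.70 to 1.74), both log2 differences of group means. Part of the set lies close to its thresholds. On the first difference 61 regions lay within 0.1 of the threshold and 29 reached 2, and on the second 133 lay within 0.1 and 114 reached 1. Just inside the first threshold were regions of Sp3, Limd2 and Myl10 (1.00 each), and just outside it regions of Msantd3, Hp and Tma16 (1.00 each on rounding). Just inside the second were Mir7237, Srgn and Ddhd1 (0.70 each), and just outside it Spp1, Pacc1 and Ugt1a10 (0.70 each on rounding). The region assigned to Spp1, the gene of osteopontin, was thus left out with a difference to RD-RD of 1.89.

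**Figure D1:**
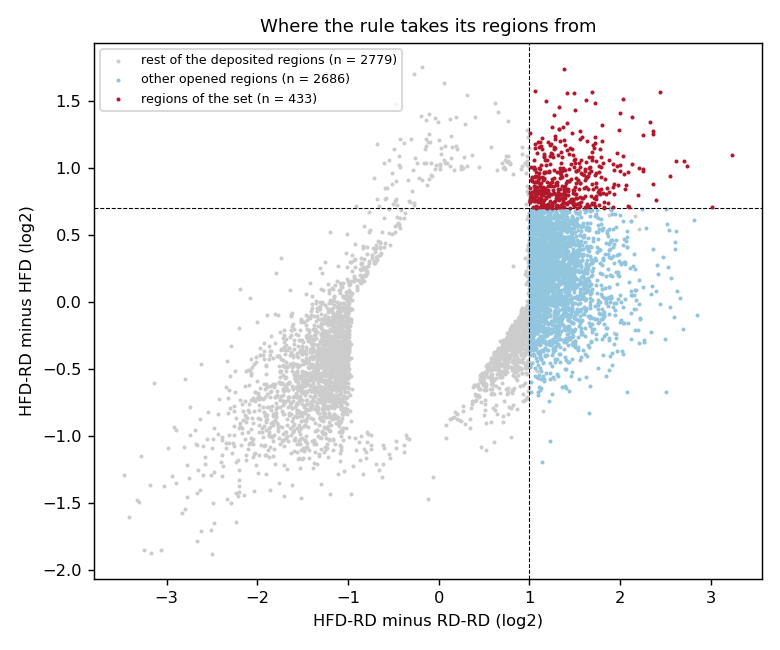
Each point is 1 deposited region, with its HFD-RD minus RD-RD difference on the horizontal axis and its HFD-RD minus HFD difference on the vertical axis, both as log2 differences of group means. Dashed lines are the thresholds of 1 and 0.7, the 433 regions of the set lie above and to the right of both, and the empty centre reflects the authors' selection of changed regions.

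Per library, the median normalized count over the 433 regions was 155 and 120 in HFD-RD, 71.8, 74.1 and 70.5 in HFD, and 49.8 and 56.2 in RD-RD. The HFD libraries lay between the other groups and close to one another, while the HFD-RD libraries differed from each other more. HFD-RD replicate 1 exceeded replicate 2 in 354 of the 433 regions (81.8%), and in 3171 of the 5465 other regions (58.0%). Both HFD-RD libraries lay above every HFD and RD-RD library in 424 regions, where 25.8% of all deposited regions did so. The rule asks for a higher HFD-RD mean than in both other groups, so this count largely follows from it. The 9 regions with overlap were assigned to 2510009E07Rik, Akap7, 2310015A10Rik, Clba1, Utrn, Atrn, Slc39a14, Atl3 and Met, all named for this overlap after their values were seen.

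**Figure D2:**
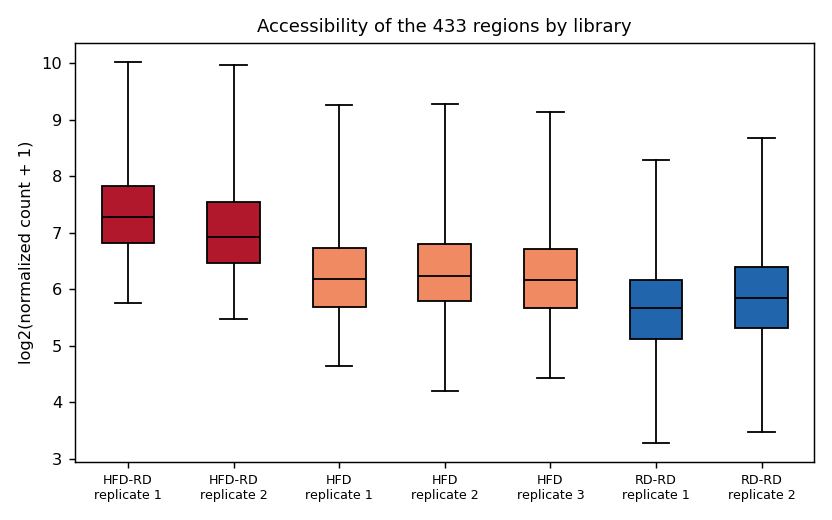
Boxes give log2(normalized count + 1) of the 433 regions in each of the 7 libraries, with the median as a line, quartiles as the box and whiskers to the lowest and highest region. The HFD-RD boxes lie highest, the 3 HFD boxes in the middle and the RD-RD boxes lowest, with HFD-RD replicate 1 above replicate 2.

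Whether these regions were already more open during obesity was asked by comparing HFD with RD-RD. The rule set no threshold on this difference, but it rests on the same libraries and equals the first difference minus the second. The second threshold thus holds it at least 0.7 below the first difference in every region of the set. Lower values here than over all deposited regions or the other opened regions are therefore in part imposed by the rule. HFD lay above RD-RD in 414 regions and below it in 19, with a median difference of 0.47 (log2, range -0.51 to 2.30) against a median of 0.75 over all deposited regions. By limma with Benjamini-Hochberg adjustment over all 5898 regions at 0.05, 183 of the 433 regions (42.3%) were higher in HFD and 0 were lower, where 59.2% of all deposited regions were higher and 29.0% lower. At an unadjusted p under 0.05, 193 were higher and 0 lower. The other 250 did not pass after adjustment. Of the other opened regions, 2571 of 2686 (95.7%) were higher in HFD. All 3 HFD libraries exceeded both RD-RD libraries in 249 of the 433 regions, against 61.0% of all deposited regions. For those 250 an increase already present in HFD was thus not called, and the further step to HFD-RD was fixed by the rule in all 433. Without RD-RD replicate 1, 117 regions were called higher and 1 lower.

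Expressed as a share of the whole difference between HFD-RD and RD-RD, the step already present in HFD had a median of 34.8% over the 433 regions and of 83.8% over the other opened regions, a contrast that the second threshold imposes. Within the set the share ran from -48.2% to 76.3%. In the same limma fit all 433 regions were higher in HFD-RD than in RD-RD (64.8% of all deposited regions), and 373 were higher in HFD-RD than in HFD with 60 not called (10.2% of all deposited regions). Both counts follow from the rule. Without HFD-RD replicate 1, leaving 1 library in that group that is assumed to vary like the others, 23 regions were called higher than in HFD, and the count was 150 without HFD replicate 1 and 221 without HFD replicate 3.

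The set was also chosen again with 1 library left out, and the library left out was then read. Chosen without HFD-RD replicate 1, 272 regions met the rule, 233 of them in the set, and 207 (76.1%) also passed both thresholds in replicate 1 alone. Chosen without HFD-RD replicate 2, 744 regions met it, of which 207 (27.8%) passed in replicate 2 and 710 (95.4%) lay above both other groups there. With an RD-RD or HFD library left out, 344 to 453 regions met the rule and 57.2% to 88.1% of them passed in the library left out. The authors' selection of regions had used every library.

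By the authors' annotation 180 of the 433 regions (41.6%) lay inside their assigned gene, 180 (41.6%) upstream, 72 (16.6%) downstream and 1 over the gene's end. None lay over a gene start, where 14 of 2686 other opened regions (0.521%) and 295 of 2771 of the rest with an assigned gene (10.6%) did. In the 422 regions outside chromosome 18, 2 (0.474%) overlapped a RefSeq promoter window, against 41 of 2606 other opened regions (1.57%) and 275 of 2638 of the rest (10.4%). The closest region lay 862 bases from its gene start and the median distance was 23592 bases, against 27418 in the other opened regions and 29603 in the rest. Within 10 kb of the gene start lay 28.2% of the set, 20.8% of the other opened regions and 29.5% of the rest. Regions of the set were narrower, with a median width of 650 bases against 767 in the other opened regions and 714 in the rest. The mean over the 7 libraries had a median over these regions of 86.0 normalized counts against 130 and 117, a value resting on the counts the rule used. In HFD-RD alone the median was 138 normalized counts, against 164 in the other opened regions and 87.6 in the rest. These are counts and medians over regions that share genes and libraries, without a test.

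**Figure D3:**
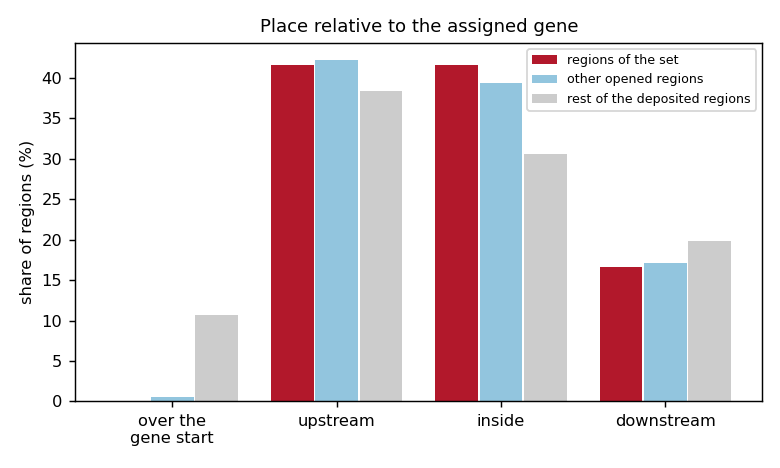
Bars give the share of regions, in percent, lying over the start of, upstream of, inside or downstream of the assigned gene, for the set, the other opened regions and the rest. Bars over the gene start are 0, 0.521 and 10.6%, while upstream and inside each hold 41.6% of the set.

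The greatest distance from the lean state was at Ap4e1, which encodes a subunit of the AP-4 adaptor complex that sorts cargo at the trans-Golgi network. This region inside the gene, chr2:127035138-127035867, had 166 and 181 normalized counts in HFD-RD, 66.8, 75.7 and 103 in HFD, and 21.2 and 14.4 in RD-RD. The groups did not overlap, and HFD-RD lay 3.24 above RD-RD and 1.09 above HFD (log2). HFD was itself 2.14 ± 0.24 (limma SE) above RD-RD, with an adjusted p of 0.000112. The authors deposited this region for HFD against RD-RD, so that p-value repeats their selection. Other regions far above RD-RD were those of 1700020M21Rik (3.01), 5830417I10Rik (2.73), Ugp2 (2.70), Bbs10 (2.62), Snapc5 (2.56), Pgam1 (2.44), Mir6395 (2.40), Zdhhc6 (2.37) and 4930405A10Rik (2.37). All 10 were called higher in HFD than in RD-RD as well, by limma differences of 0.87 to 2.30, beside 59.2% of all deposited regions. The ranking used the same RD-RD libraries and favours low RD-RD values, and so favours this call.

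In several of the regions farthest above HFD, RD-RD lay at or above HFD. Ranking by HFD-RD minus HFD favours regions with low HFD values, so this follows in part from the choice. A region inside Vipr2, a receptor for vasoactive intestinal peptide, at chr12:116137970-116139543, had 409 and 313 normalized counts in HFD-RD, 104, 132 and 88.5 in HFD, and 118 and 158 in RD-RD. HFD-RD stood alone there, while HFD and RD-RD overlapped. The Hsd11b1 region with the start printed above had 458 and 401 normalized counts in HFD-RD, 132, 166 and 156 in HFD, and 157 and 226 in RD-RD. Its HFD-RD mean lay 1.50 above HFD and 1.18 above RD-RD (log2). HFD and RD-RD overlapped there, and HFD minus RD-RD was -0.32 ± 0.21 (limma SE, adjusted p = 0.173).

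A region upstream of Samhd1, a deoxynucleotide triphosphate hydrolase that restricts viruses, had 950 and 688 normalized counts in HFD-RD, 243, 315 and 268 in HFD, and 225 and 405 in RD-RD. It was among the strongest regions of the set, and its RD-RD libraries enclosed all 3 HFD libraries. A region inside Dapk1, a calmodulin-dependent kinase of cell death and autophagy, had 575 and 466 normalized counts in HFD-RD, 199, 159 and 186 in HFD, and 138 and 114 in RD-RD. Here the 3 groups were apart, and HFD passed the limma test against RD-RD (0.52 ± 0.20 SE, log2, adjusted p = 0.0286). That call was lost with the replicate number as a block and without RD-RD replicate 2, HFD replicate 1 or HFD replicate 3, with differences of 0.38 to 0.50. Further regions far above HFD were assigned to Ccdc185 (1.58), Pgam1 (1.57), Cyb5a (1.57), 4930412B13Rik (1.56), 7420700N18Rik (1.51) and Panx1 (1.48). Pgam1, Dapk1, Cacng6, Panx1 and Cyb5a had the largest margin over both thresholds at once.

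**Figure D4:**
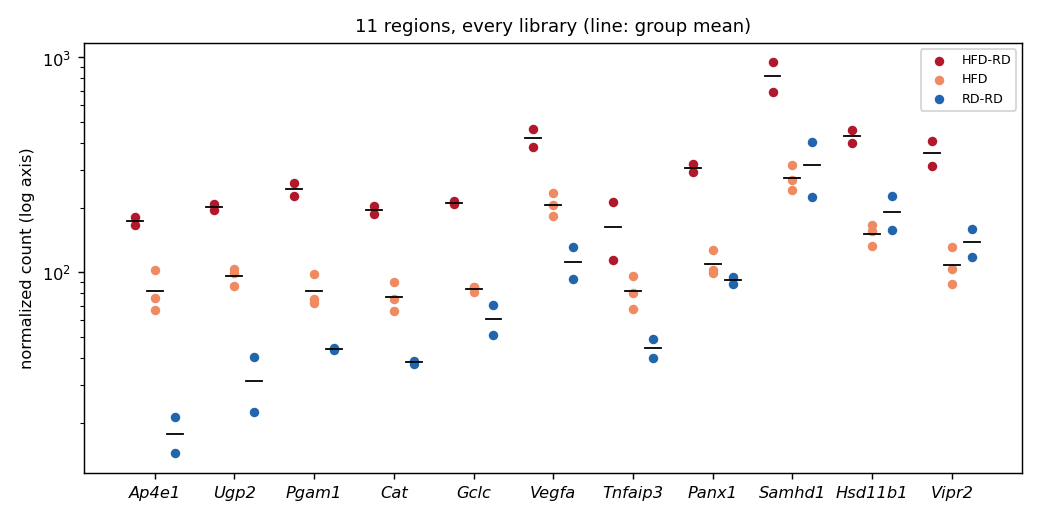
Normalized counts of 11 regions of the set on a log axis, with a point for each library, a line for each group mean, and HFD-RD, HFD and RD-RD side by side within each gene. From Ap4e1 to Tnfaip3 the HFD points lie above the RD-RD points, while at Samhd1, Hsd11b1 and Vipr2 they overlap or lie lower.

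Of 45 deposited regions of glutathione, thioredoxin and NADPH genes, 17 regions of 13 genes were in the set. The list also holds transcription factor genes. Glutathione is made from cysteine and glutamate and, with thioredoxin, removes peroxides, and both systems draw on NADPH from the pentose phosphate pathway. The list of these genes was written after the values were seen, so its counts are a description, beside 7.34% of all deposited regions in the set. With equal totals per library 11 of the list's regions met the rule, and with 1 library left out 14 to 18 did. Over all 45 regions limma called 39 higher and 5 lower in HFD-RD than in RD-RD, 20 higher and 2 lower in HFD-RD than in HFD, and 28 higher and 3 lower in HFD than in RD-RD. Over all deposited regions the shares were 64.8% higher and 32.4% lower, 10.2% higher and 12.8% lower, and 59.2% higher and 29.0% lower in the same 3 comparisons. The first and second of these used the same differences as the rule. The rule takes only regions higher in HFD-RD than in RD-RD, so every list rich in such regions is favoured beside the 7.34%. Without HFD-RD replicate 1, 5 were called higher in HFD-RD than in HFD.

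Supply of glutathione was represented by the cystine importer Slc7a11 (3 regions) and by both subunits of the enzyme that starts its synthesis, Gclc and Gclm (1 and 2 regions). The region upstream of Gclc, the catalytic subunit, at chr9:77746283-77746909 had 215 and 207 normalized counts in HFD-RD, 85.8, 85.6 and 80.8 in HFD, and 51.1 and 70.6 in RD-RD. The groups were apart, with HFD 0.48 ± 0.19 (limma SE, log2) above RD-RD at an adjusted p of 0.0364. The call was lost with the replicate number as a block and without RD-RD replicate 1 or any 1 HFD library, with differences of 0.25 to 0.51. Regeneration of reduced glutathione and of NADPH was represented by Gsr, glutathione reductase, and Pgd, the 6-phosphogluconate dehydrogenase of the pentose phosphate pathway. The Gsr region had 689 and 517 normalized counts in HFD-RD, 333, 274 and 313 in HFD, and 199 and 203 in RD-RD. The Pgd region inside the gene had 184 and 185 normalized counts in HFD-RD, 59.6, 84.7 and 92.8 in HFD, and 92.2 and 61.9 in RD-RD. HFD was above RD-RD at Gsr, a call lost without RD-RD replicate 1 or HFD replicate 1 (0.59 and 0.54, log2), while at Pgd the 2 groups overlapped (limma adjusted p = 0.874) and HFD-RD stood alone.

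Enzymes that act on superoxide and peroxides were represented by Cat, Sod1 and Prdx1. The region upstream of Cat, which encodes catalase, at chr2:103505290-103506492 had 204 and 187 normalized counts in HFD-RD, 75.0, 65.8 and 90.3 in HFD, and 37.4 and 38.9 in RD-RD. It formed 3 separate steps, with HFD above RD-RD by 0.98 ± 0.19 (limma SE, log2, adjusted p = 0.000929). The authors deposited this region too for HFD against RD-RD, so the p-value repeats their selection. The Sod1 region had 140 and 128 normalized counts in HFD-RD, 68.6, 74.9 and 78.2 in HFD, and 57.3 and 60.5 in RD-RD, and HFD did not pass against RD-RD (limma adjusted p = 0.106). Among the others were Akr1b8, an aldo-keto reductase, Gstm1, a glutathione transferase, and the transcription factor genes Nfe2l1 and Bach2. A region assigned to Txn2, mitochondrial thioredoxin, lay between that gene and Myh9 and within 8 kb of a region of the set assigned to Myh9, so its gene is uncertain.

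Not all genes of this kind followed the pattern, and those named here were chosen after their values were seen. A region inside Hmox1, heme oxygenase 1, had 139 and 102 normalized counts in HFD-RD, 49.2, 46.9 and 40.4 in HFD, and 112 and 107 in RD-RD. HFD was there below RD-RD by limma (-1.25 ± 0.20 SE, log2, adjusted p = 0.000367), and HFD-RD overlapped RD-RD. A region inside Txnrd1, cytosolic thioredoxin reductase, had 108 and 141 normalized counts in HFD-RD, 140, 110 and 161 in HFD, and 23.7 and 37.4 in RD-RD. HFD-RD and HFD overlapped there (HFD-RD minus HFD -0.14), and both lay above RD-RD. Regions of Gpx3 and Gstp2 lay lower in HFD-RD than in RD-RD, by -1.46 and -2.48 on the log2 scale.

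**Figure D5:**
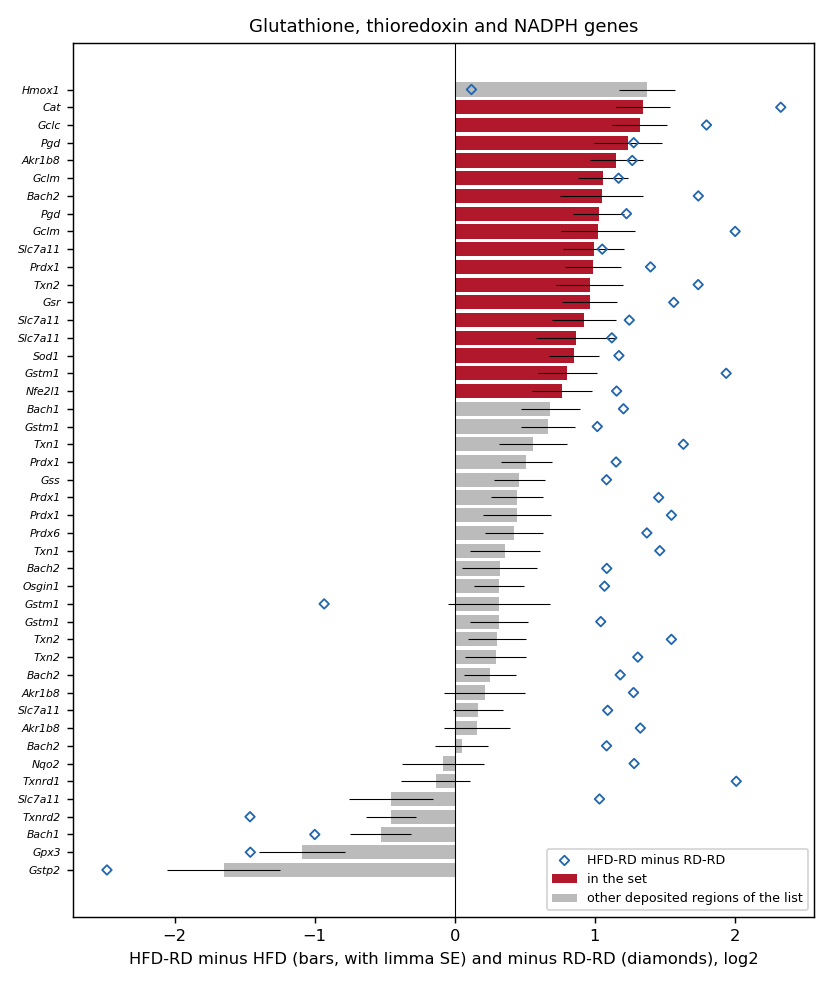
All 45 deposited regions of the glutathione, thioredoxin and NADPH list, ordered by the HFD-RD minus HFD difference (bars, log2, with limma SE), with the HFD-RD minus RD-RD difference as diamonds. The 17 regions of the set are the filled red bars, which run from 0.76 at Nfe2l1 to 1.34 at Cat, and the Hmox1 bar lies above them with its diamond at 0.12.

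Sugar storage and glycolysis genes, likewise listed after the values were seen, had 6 of 14 deposited regions in the set, beside 7.34% of all deposited regions. They were Pgam1, phosphoglycerate mutase, Pfkl, a phosphofructokinase subunit, Pkm, pyruvate kinase, Pfkfb4, which sets the level of the activator of phosphofructokinase, Ugp2, which makes UDP-glucose for glycogen, and Pygl, a glycogen phosphorylase. The Pgam1 region at chr19:41916704-41917423 had 261 and 228 normalized counts in HFD-RD, 75.4, 98.7 and 72.2 in HFD, and 43.6 and 44.6 in RD-RD. The Ugp2 region at chr11:21428632-21429171 had 195 and 207 normalized counts in HFD-RD, 99.4, 86.4 and 104 in HFD, and 22.4 and 40.3 in RD-RD. Both were in 3 separate steps. The Pygl region had 270 and 175 normalized counts in HFD-RD, 79.5, 82.3 and 78.2 in HFD, and 87.2 and 66.2 in RD-RD, so HFD-RD stood alone. In HFD against RD-RD limma called 3 of these 6 regions higher, beside 59.2% of all deposited regions. An earlier list, of glycolysis and oxidation genes, had 2 of its 7 deposited regions in the set (28.6%).

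Inflammasomes are cytosolic complexes that activate interleukin 1β, and extracellular ATP is one of their triggers. Of 14 deposited regions of such genes, again listed after the values were seen, 7 were in the set, beside 7.34% of all deposited regions. They were assigned to Panx1, a channel that releases ATP, P2rx7, the ATP-gated receptor, Naip1 and Naip2, sensors of bacterial proteins, Gbp5, a guanylate-binding protein, Pstpip1, an adaptor that binds pyrin, and Il1r2, the decoy receptor for interleukin 1. With equal totals per library 4 of the list's regions met the rule. The region inside Panx1 had 294 and 319 normalized counts in HFD-RD, 103, 127 and 98.9 in HFD, and 88.4 and 95.0 in RD-RD. The HFD-RD libraries were close to each other and stood alone, and HFD did not pass against RD-RD (limma adjusted p = 0.231). The Naip2 region had 139 and 143 normalized counts in HFD-RD, 61.9, 65.8 and 51.6 in HFD, and 47.3 and 37.4 in RD-RD. Beside 59.2% of all deposited regions, it was the 1 region of the 7 called higher in HFD than in RD-RD (limma adjusted p = 0.0348). Without RD-RD replicate 2, HFD replicate 1 or HFD replicate 2 that call was lost. Naip1 and Naip2 belong to 1 gene family, and how any reads matching both were placed is not given in the sources used here.

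Of 21 deposited regions of cytokine, chemokine and NF-kB genes, 2 were in the set (9.52%, beside 7.34% of all deposited regions). They were assigned to Tnfaip3, the gene of A20, an enzyme that restrains NF-kB, and Il12a, a subunit of interleukin 12. Of 7 regions of Toll-like receptor signalling, 3 were in it (42.9%), assigned to Ikbkb, a kinase that activates NF-kB, Tlr5, the flagellin receptor, and Lbp, which binds lipopolysaccharide. The Tnfaip3 region lay downstream of the gene, 74.3 kb from its start. It had 212 and 114 normalized counts in HFD-RD, 96.6, 80.6 and 67.9 in HFD, and 39.9 and 49.0 in RD-RD. The HFD-RD libraries were there nearly as far apart from each other as from HFD, and the call of HFD over RD-RD was lost without RD-RD replicate 1 (0.71, log2). The Ikbkb region had 195 and 158 normalized counts in HFD-RD, 128, 88.0 and 84.3 in HFD, and 105 and 67.7 in RD-RD. None of the 3 Toll-like receptor regions was called in HFD against RD-RD by limma. Over all deposited regions 59.2% were higher and 29.0% lower.

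Beside 7.34% of all deposited regions in the set, angiogenesis genes contributed 1 of their 27 regions. It lay 37.6 kb upstream of Vegfa, the main growth factor of blood vessels, at chr17:46069988-46070790, and had 465 and 383 normalized counts in HFD-RD, 233, 205 and 182 in HFD, and 93.4 and 131 in RD-RD. The 3 groups were apart, and HFD was 0.89 ± 0.21 (limma SE, log2) above RD-RD with an adjusted p of 0.00272. Of AP-1 and other signal-dependent transcription factor genes, 5 of 23 regions were in the set, 3 assigned to Jun and 1 each to Klf6 and Bach2. Those of Jun lay 42.2 to 159 kb upstream of its start.

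Of 49 deposited regions of lipid-associated macrophage genes, 4 were in the set (8.16%, beside 7.34% of all deposited regions). They were 3 of Hvcn1, the voltage-gated proton channel, and 1 inside Ctsd, the lysosomal protease cathepsin D. Over the whole list limma called 49 of 49 regions higher in HFD-RD than in RD-RD and 5 higher in HFD-RD than in HFD, where 64.8% and 10.2% of all deposited regions were. The 7.34% also counts regions that were lower, which the rule could not take, so it is a low mark for this list. Resident macrophage genes gave 1 of 27 regions, upstream of Klf4, while 19 of the 27 were lower in HFD-RD than in RD-RD, as were 32.4% of all deposited regions. Macrophage identity genes, with 9 deposited regions of Irf8, Runx1 and Zeb2, gave 0. The tables hold changed regions, so the sort itself cannot be checked on them. Markers of other cell types had 32 deposited regions, of which 1, inside the dendritic cell gene Xcr1, was in the set. None was at 0 in every library, and their summed normalized counts ran from 6099 to 6622 in HFD-RD, 6304 to 6410 in HFD and 6683 to 6963 in RD-RD. By cell type, the 4 dendritic cell regions summed to 882 to 1058 in HFD-RD, 893 to 1011 in HFD and 1966 to 2174 in RD-RD. The 8 T cell regions summed to 2197 to 2375 in HFD-RD, 2133 to 2361 in HFD and 1480 to 1557 in RD-RD. The single NK cell region had 67.5 to 72.2 in HFD-RD, 44.3 to 57.6 in HFD and 28.6 to 41.8 in RD-RD, and so was highest in HFD-RD, like the set. The 2 neutrophil regions summed to 171 to 223 in HFD-RD, 253 to 281 in HFD and 429 to 471 in RD-RD, and the 6 B cell regions to 667 to 697, 728 to 798 and 845 to 894 in the same groups, both lowest in HFD-RD. The 9 endothelial regions summed to 2014 to 2092 in HFD-RD, 1967 to 2037 in HFD and 1748 to 1787 in RD-RD. The 2 fibroblast and adipocyte progenitor regions summed to 96.3 to 111 in HFD-RD, 87.2 to 91.7 in HFD and 96.5 to 128 in RD-RD. Dendritic, T and endothelial cell sums overlapped between HFD-RD and HFD. These sums hide regions that moved in opposite directions. In HFD-RD against RD-RD limma called 5 T cell regions higher and 3 lower, and 5 endothelial regions higher and 4 lower. Of the dendritic cell regions 1 was higher and 3 lower, and of the B cell regions 2 were higher and 4 lower. Fibroblast and adipocyte progenitor regions had 1 higher and 1 lower. The part of these cells in the pattern of the 433 regions was not tested.

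Actin and myosin genes, listed after the values were seen, had 10 of 51 deposited regions in the set, from 9 genes. This was 19.6%, beside 7.34% of all deposited regions. Limma called 44 of the 51 higher and 6 lower in HFD-RD than in RD-RD, so this list too is favoured by the rule. With equal totals per library 3 of the list's regions met the rule. Actr2 and Actr3 encode both actin-related subunits of the Arp2/3 complex, which branches actin filaments. The Actr2 region had 212 and 201 normalized counts in HFD-RD, 92.6, 123 and 79.1 in HFD, and 72.2 and 107 in RD-RD. The Actr3 region had 115 and 69.4 normalized counts in HFD-RD, 48.8, 52.7 and 43.0 in HFD, and 32.4 and 15.8 in RD-RD. HFD overlapped RD-RD at Actr2 and lay above it at Actr3 (limma adjusted p = 0.00665), a call lost without RD-RD replicate 2 (0.55, log2). Other regions were assigned to Myh9, nonmuscle myosin heavy chain, Myl12b, a myosin light chain, Myo10, Baiap2, Parvg, Tns3 and Vim. Vim encodes vimentin, an intermediate filament protein, so the list is wider than its name. The region of the set assigned to Myl10, a myosin light chain gene, was not counted in it.

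Single loci often held regions of the set beside regions that behaved otherwise. The 5 deposited regions of Slc7a11 were all higher in HFD-RD than in RD-RD, by 1.03 to 1.25. Of these, 3 were in the set, and the others, 163 and 304 kb upstream, had HFD-RD minus HFD differences of 0.17 and -0.45. Tnfaip3 had 4 deposited regions, 1 of them in the set with an HFD-RD minus HFD difference of 0.93, and the 3 others had 0.34, 0.05 and -0.65. The last of these, 10.7 kb upstream of the gene and the closest of the 4 to its start, had 388 and 371 normalized counts in HFD-RD, 647, 572 and 576 in HFD, and 224 and 285 in RD-RD. It was most open in HFD, in contrast to the region downstream. All 3 deposited regions were in the set at Jun, spread over 119 kb upstream, at Hvcn1 within 26.3 kb and at Gm5334 within 27.5 kb, and 3 of 5 at Prkcb, protein kinase C beta, within 12.6 kb. Regions of 1 gene share their locus and are not independent.

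Larger gene families held shares on both sides of the 7.34% over all deposited regions. Solute carriers had 13 of 122 regions in the set (10.7%), kinases, phosphatases and second messenger genes 16 of 187 (8.56%), regions nearest to microRNA genes 16 of 234 (6.84%), cytokine and JAK-STAT genes 6 of 87 (6.90%) and zinc finger genes 7 of 111 (6.31%). Lower shares were those of G protein-coupled receptors, 5 of 103 (4.85%), small GTPases and their regulators, 6 of 129 (4.65%), and cell adhesion and matrix genes, 3 of 100. Chromatin regulators had 5 of 46 regions in the set and ion channels 3 of 40. Of 4 regions of interferon and antigen presentation genes, 1 was in the set, inside Ifngr2, a subunit of the interferon gamma receptor. Lysosome and phagocytosis genes gave 1 of 29 regions and growth factor and morphogen genes 2 of 45, Tcf7l2 and Nrg4. By chromosome the share ran from 4.71% on chromosome 15 to 10.2% on chromosome 9.

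A fold change by the authors' deposited table was available for 399 of the 433 regions for HFD-RD against RD-RD, with a median of 1.33 (log2, 1.00 to 2.46). For the other 34 the authors' deposited table gives HFD against RD-RD. A table of 216 regions supplied 107 regions of the set, 49.5% of that table, and a table of 2689 regions supplied 292.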

How the data were processed

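ATAC-seq of sorted macrophages was available as 7 deposited tables of changed regions. Signal, that is coverage of a region, was deposited as normalized counts: within 1e-06, all values of a library are whole multiples of 1 step, the inverse of its size factor. Each region also has a log2 fold change, a Wald score and a p-value, all computed by the authors. The comparison behind each table was read from its values. Picard, deepTools, MACS2 2.0.10, DESeq2 and the build GRCm38 are named per the submitters' processing notes; for aligner and filters the sources used here give nothing.

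limma 3.58.1 (R 4.3.3) was run on log2(normalized count + 1) over all 5898 regions with the 3 groups in 1 fit (4 residual degrees of freedom, prior 7.2), Benjamini-Hochberg adjustment and a threshold of 0.05. The fit was also run on simulated counts in which few regions changed. Most deposited regions were called here, so that run does not bear on false calls in these data. Errors are limma's SE. A fold on this scale understates changes of low regions. Planned count-based tests and scalings were not run, and the normalized values were tested on the log scale.

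Members and lists were chosen with earlier results of these data known, and 4 gene lists were added after the values were seen. Named were the 10 regions with the largest difference to each of RD-RD and HFD, the 5 with the largest margin over both thresholds, members assigned to genes of a pathway or marker list, genes with 3 or more regions in the set, and the 3 regions on each side of each threshold. RefSeq held the assigned gene of all 433 regions. Sequences are from RefSeq, GRCm38.p6. Columns of other samples numbered 0.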

Additional observations from a re-analysis of the deposited data

How the results depend on the processing

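The set is sensitive to scaling and to the HFD-RD libraries. With equal totals per library over the deposited regions, which moved the median of all regions to 0.84 for HFD-RD minus RD-RD and -0.26 for HFD-RD minus HFD, against 1.03 and -0.05 as reported (log2), 140 regions met the rule, and with both thresholds raised by 0.3 there were 76. Leaving out 1 library gave 272 to 744 regions, the lowest without HFD-RD replicate 1 and the highest without HFD-RD replicate 2, with 233 and 407 of the 433 among them. Pseudocounts of 0.5 and 5 gave 444 and 358. Equal totals also left 11 regions of the glutathione, thioredoxin and NADPH list, 4 of the inflammasome list and 3 of the actin and myosin list. Leaving out 1 library gave 14 to 18, 5 to 8 and 7 to 12 for these lists and 5 to 8 for glycogen and glycolytic enzymes. These list alternatives were chosen after seeing the data. Leaving out 1 library gave 23 to 404 regions called higher in HFD-RD than in HFD, 117 to 191 in HFD than in RD-RD, the lowest without RD-RD replicate 1, and 421 to 433 in HFD-RD than in RD-RD.

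Same-numbered libraries did not deviate together (correlations of -0.07 to 0.06), so the numbers pair nothing. With the replicate number as a block, 126 regions were called higher in HFD-RD than in HFD, 151 in HFD than in RD-RD and 433 in HFD-RD than in RD-RD. The block leaves HFD replicate 3 without a partner and so without weight. Of 51 named regions, 24 were called in HFD against RD-RD and 0 of these changed sign under any alternative run, while 12 of the 27 not called did under at least 1. Beside the calls lost that are given with their regions, regions of Cacng6, Tcf7l2, Jun, Hvcn1, Nrg4, Bach2 and Prkcb lost theirs under at least 1. Under any 1 alternative at most 6 calls were lost, without RD-RD replicate 1. Motif windows of 150 and 500 bases and of whole regions were not run without a genome sequence, nor were edgeR, DESeq2 or TMM scaling.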
